A study of Mus musculus with 4 samples.

Results

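The 7 keratin genes described here were Krt6a, Krt6b, Krt16, Krt17, Krt42, Krt75 and Krt79. The gene lists used below and these keratins were chosen with earlier results of these data known. The 7 keratins were taken by symbol from the 33696 genes of the single-cell tables. Their Ensembl identifiers are ENSMUSG00000058354, ENSMUSG00000023041, ENSMUSG00000053797, ENSMUSG00000035557, ENSMUSG00000053654, ENSMUSG00000022986 and ENSMUSG00000061397, in that order. Cells were dissociated from digits after amputation of the tip (in the third phalangeal element, P3). The female C57BL/6 mice (substrain C57BL/6J in the study's methods) were aged 6 to 8 weeks, and 10 mice were pooled into each of 4 droplet libraries. One library came from limbs with surgical lymph node removal (LNR) and was set against a sham-operated control. Another came from mice fed SAR131675, an inhibitor of the lymphatic receptor VEGFR3, at 30 mg/kg of chow for 8 days and was set against mice on a matched control diet. The 8 days are from the sample records. The study's methods start the SAR131675 chow 5 days before amputation and continue it, and the difference was not settled here. Digits for single-cell libraries were collected 8 days after amputation, although a figure legend gives day 5 for the SAR131675 pair. The labels name no transgene or induced mutation for these 4 libraries. The study describes the sham side as the opposite limb of animals with LNR, and by its methods only some of the collected digits were amputated, so each pool could hold uninjured digit tissue. The methods also have the digits cut off for collection at the second phalangeal element. Each pool could thus hold tissue from behind P3, and a population below cannot be placed in the tip. Each condition was 1 library and its own batch, so the condition and the batch cannot be told apart. In the diet pair the pool of mice cannot be told apart from them either. In the LNR pair the mice would be shared if the sham library came from those opposite limbs. There was no replicate library, no p-value is given, and intervals are 95% intervals that cover counting error only.

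Keratins are the intermediate filament proteins of epithelial cells, and a filament needs a type I partner (here Krt16, Krt17 and Krt42) and a type II partner (here Krt6a, Krt6b, Krt75 and Krt79). Krt6a, Krt6b, Krt16 and Krt17 are absent from most of the resting epidermis between follicles, are switched on in keratinocytes at wound edges, and are made all the time in the nail bed and in parts of the hair follicle. Krt75 marks the companion layer that lies against the outer root sheath of the follicle, Krt42 is a keratin of the nail unit, and Krt79 marks the follicle opening (the infundibulum) and the duct of the sebaceous gland.

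Several of the 7 genes are close copies, and the ends of their coding sequences are shown for comparison, since a read can be assigned to 1 copy only where the copies differ. The coding sequences of Krt6a and Krt6b shared 97.6% of their bases, with an identical run of 280 bases, while the last 500 bases of their transcripts, where 3′ libraries read, shared 73.8% and no identical run longer than 22 bases. In Krt6a and Krt6b 557 and 506 bases follow the coding sequence, so the coding ends shown for them lie outside those last 500 bases. Krt17 and Krt42 shared 76.3% of coding bases and 68% of the last 500 transcript bases. Krt16 and Krt17 shared 71.3% and 66%. The last 75 coding bases, stop codon included, lie in the last exon of each gene on the minus strand, at chr15:101690467-101690541 for Krt6a, chr15:101676529-101676603 for Krt6b, chr11:100256402-100256476 for Krt17 and chr11:100263070-100263144 for Krt42 (GRCm38, GENCODE). Capitals mark bases that differ from, or have no counterpart in, the aligned copy (Krt6a with Krt6b, Krt17 with Krt42).
Krt6a: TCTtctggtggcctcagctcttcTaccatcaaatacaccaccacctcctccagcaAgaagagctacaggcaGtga
Krt6b: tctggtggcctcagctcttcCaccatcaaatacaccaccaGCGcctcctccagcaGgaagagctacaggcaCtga
Krt17: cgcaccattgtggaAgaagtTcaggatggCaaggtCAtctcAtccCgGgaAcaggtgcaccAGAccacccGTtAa
Krt42: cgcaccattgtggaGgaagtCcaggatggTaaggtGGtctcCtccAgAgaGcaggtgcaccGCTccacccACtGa

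The counts bore on the same point. In a cell cluster led by Serpinb11, 21239, 11119, 2377 and 4080 unique molecular identifiers (UMIs, each standing for 1 captured RNA molecule) of Krt6a were counted in the SAR131675, control diet, LNR and sham libraries, beside 5, 2, 0 and 1 of Krt6b. In infundibulum-like cells 29945, 29002, 28066 and 36234 Krt17 UMIs stood beside 13, 8, 10 and 15 of Krt42. So these Krt6a-rich cells were nearly free of Krt6b counts, and these Krt17-rich cells of Krt42 counts. Values below are given in the library order SAR131675, control diet, LNR and sham.

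After filtering on gene number, UMI number and mitochondrial share, 29076, 24030, 19827 and 20669 cells were kept, with medians of 11316, 10712, 5725 and 5851 UMIs per cell. Of these, 19250, 15890, 8443 and 10159 fell in clusters with keratinocyte markers and are called keratinocyte-like. The libraries of the SAR131675 pair were deeper than those of the LNR pair, so levels are given as the UMIs of a gene per 1000000 summed UMIs of a cell group (CPM) and were compared within a pair. Kept barcodes shared by the libraries of a pair numbered 210 and 101. In the sham library 388 keratinocyte-like cells, against 6 in LNR, formed a cluster led by genes of other cell types (Prg4, Col1a1 and S100a8), and counts of genes past a limit in all keratinocyte-like cells are also given without it and without 3 other clusters of that kind. Scrublet called 4.55%, 1.01%, 6% and 8.12% of cells doublets, and they were kept in the main values. The rates set for these cell numbers were 23.3%, 19.2%, 15.9% and 16.5%, so far fewer doublets were called than set.

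Most UMIs of each of the 7 keratins lay in keratinocyte-like cells, and those of Krt6b and Krt42 mostly in a single small population described below. Keratinocyte-like cells held 95.6%, 94.8%, 84.3% and 90.6% of Krt6a UMIs and 97.4%, 96.9%, 90.2% and 93.4% of Krt17 UMIs. The shares of Krt42 were 92.7%, 98.7%, 74.4% and 83.6%, under those of Krt6a and Krt17 in all libraries but control diet. Within the keratinocyte-like cells the UMIs were very unevenly spread. The number of cells that together held 50% of a keratin's UMIs was 7, 6, 3 and 3 for Krt6b, 12, 5, 6 and 10 for Krt42, and 19, 14, 5 and 9 for Krt75. It was 35, 18, 11 and 12 for Krt16, 179, 79, 59 and 68 for Krt6a, 373, 199, 154 and 194 for Krt17, and 204, 164, 175 and 233 for Krt79. Krt6b, Krt42, Krt75 and Krt16 were thus measured in few cells, and their levels in a library rested on them.

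**Figure D1:**
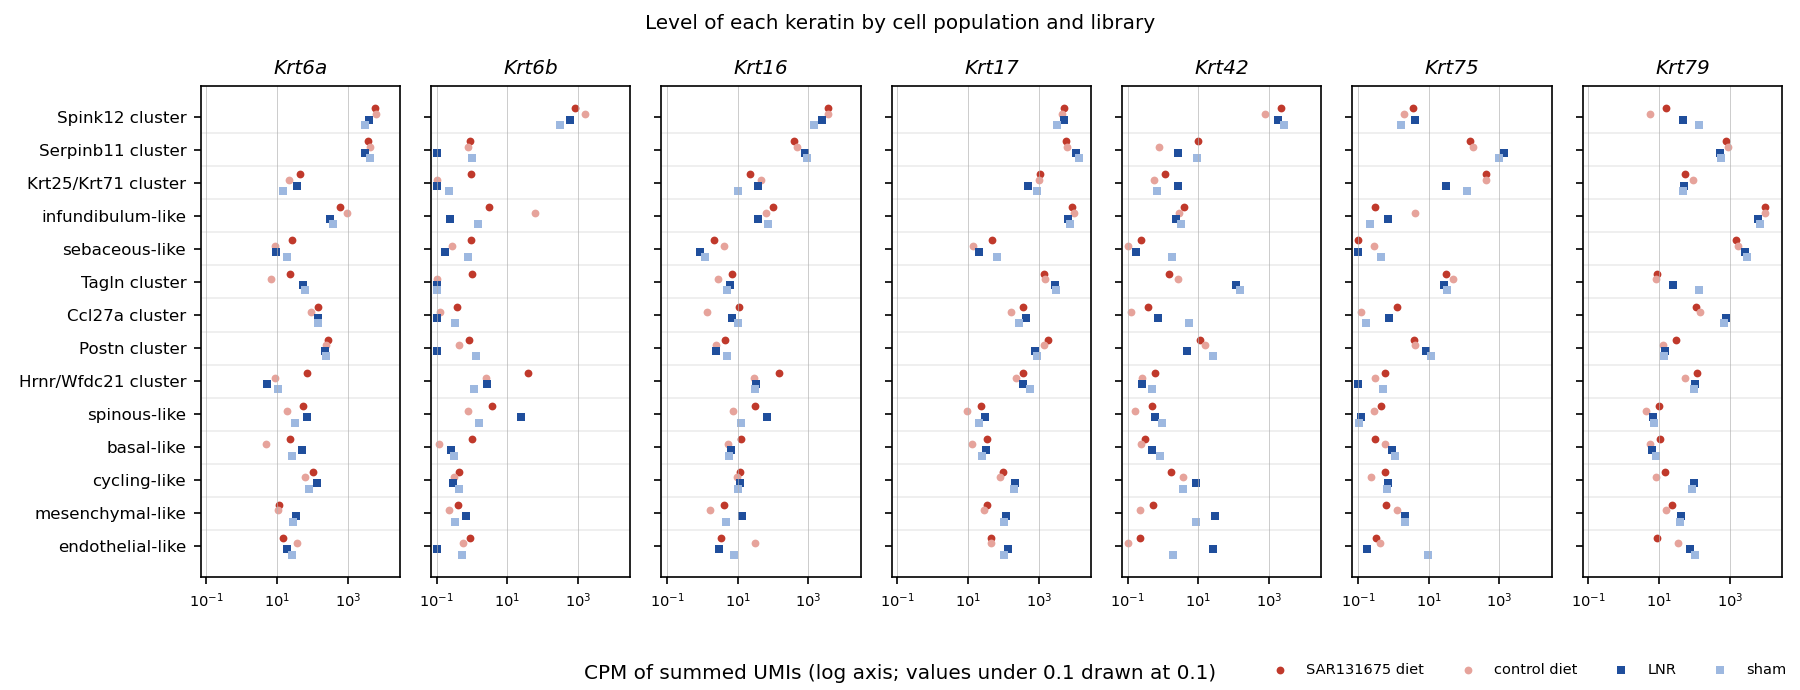
Level of the 7 keratins (CPM of summed UMIs, log axis, values under 0.1 drawn at 0.1) in 14 cell populations, with 1 point per library. Krt6a, Krt6b, Krt16 and Krt42 reached their highest points in the Spink12 cluster in nearly every library, Krt79 in infundibulum-like cells, and Krt75 in the Krt25 and Krt71 cluster or in the Serpinb11 cluster.

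The population with the highest Krt6b, Krt16 and Krt42 in all 4 libraries was a cluster of 245, 140, 199 and 207 cells. It was led by Spink12 and Spink6, which code for protease inhibitors, by Gpx2, and by the keratins Krt90, Krt36 and Krt84, and it passed the naming rule for no fixed cell type, so it is called the Spink12 cluster. Krt6b, a type II wound and nail keratin, stood at 823, 1585, 593 and 319 CPM, and 74.5%, 90.5%, 68.1% and 71.6% of all its UMIs were found there. Krt16, its usual type I partner, stood at 3597, 3633, 2357 and 1418 CPM. Krt42, the nail unit keratin, stood at 2192, 787, 1767 and 2691 CPM, and the cluster held 79.8%, 71.6%, 63.2% and 72.2% of its UMIs. These shares came from 0.843%, 0.583%, 1% and 1% of the kept cells.

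Krt6a and Krt17 were high in the Spink12 cluster without being restricted to it. Krt6a, a wound-inducible type II keratin, stood at 5792, 6117, 3932 and 2993 CPM, and the median cell held 31, 25, 6 and 3 of its UMIs. Krt17, a type I keratin of wounds and of the follicle, stood at 5171, 4672, 5334 and 3320 CPM. Krt75 was close to absent from the cluster, with 14, 4, 8 and 3 UMIs, and Krt79 stood at 15.3, 5.45, 47.1 and 135 CPM.

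**Figure D2:**
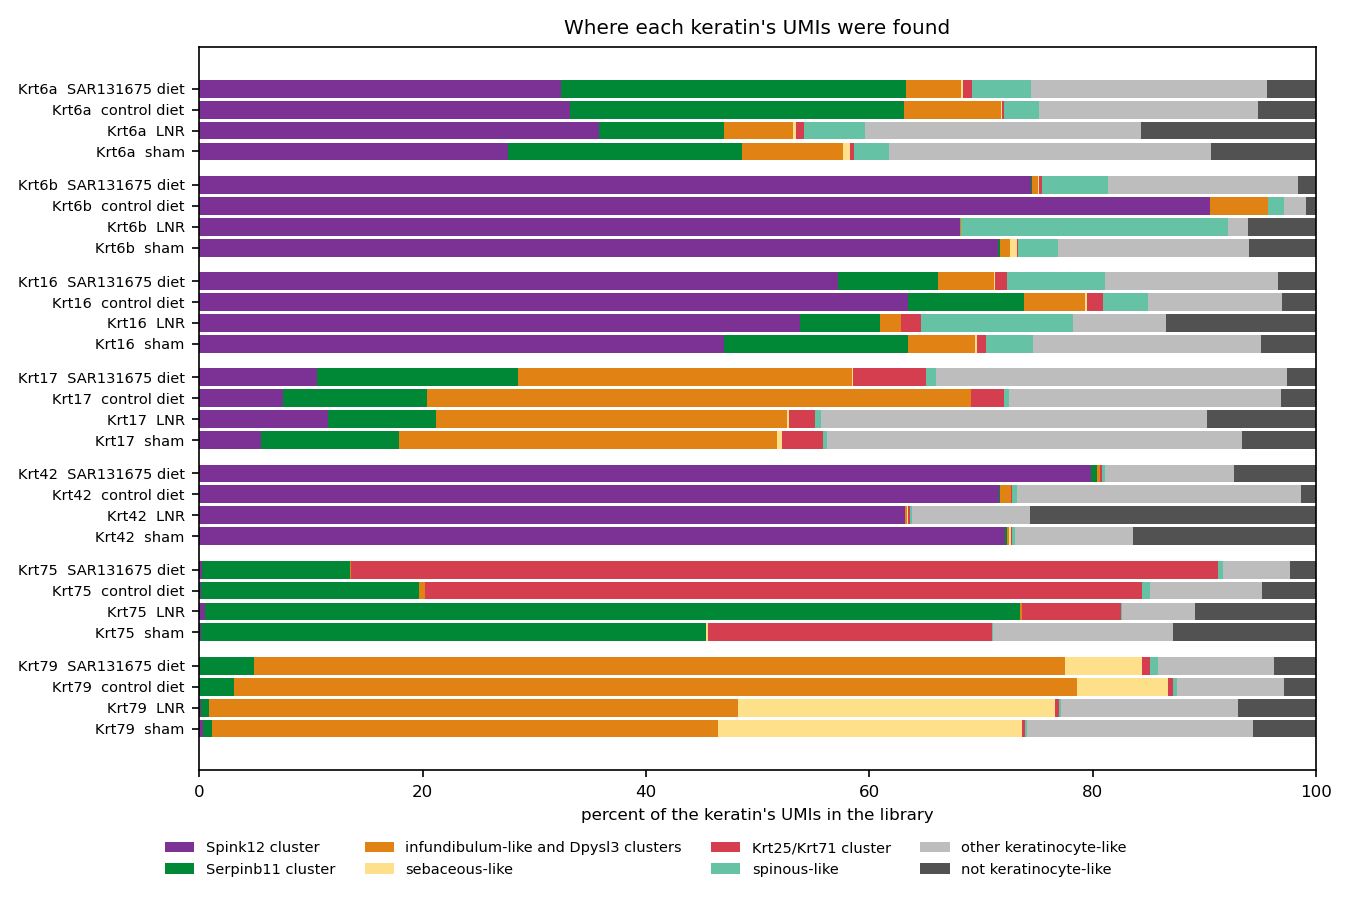
Share of each keratin's UMIs (percent of its UMIs in all kept cells of a library, 1 bar per library, bars ending at 100) by cell population. The Spink12 cluster held most Krt6b and Krt42, the infundibulum-like and Dpysl3 clusters most Krt79 in the SAR131675 pair, and dark grey shows the share outside keratinocyte-like cells.

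Within the Spink12 cluster Krt6b was found in cells with Krt16 and Krt6a, and Krt42 was not tied to it. Cells with 10 or more UMIs of Krt42 numbered 47, 12, 22 and 30, and cells with 10 or more of Krt6b numbered 28, 17, 10 and 9, a limit chosen after the data were seen. The sets shared 2, 1, 2 and 2 cells, which is to be set beside the 19.2%, 8.57%, 11.1% and 14.5% of all cells of the cluster that held 10 or more Krt42 UMIs. By contrast, 28, 17, 10 and 8 of the Krt6b cells also held 10 or more Krt16 UMIs, where 37.1%, 32.9%, 20.6% and 12.1% of all cells of the cluster did, and all Krt6b cells held 10 or more of Krt6a. The median cell of the cluster was past that Krt6a limit too in the SAR131675 pair, but not in the LNR pair. Over all cells of the cluster, Spearman's rho between Krt6a and Krt16 was 0.86, 0.82, 0.71 and 0.65, and between Krt6b and Krt42 it was 0.00, -0.03, 0.03 and 0.03. These are descriptions over 245, 140, 199 and 207 cells that share a library and differ in depth.

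The 2 sets of cells also differed in the keratins of the epidermal layers, which had not been used to pick them. Krt10, a type I keratin of cells that have left the basal layer, stood at 13053, 15251, 11218 and 5749.8 CPM in the Krt6b cells and at 367, 116, 403 and 86.3 CPM in the Krt42 cells. Krt5, the basal layer's type II keratin, stood at 1094, 62, 896 and 952 CPM in the Krt6b cells and at 5153, 5235, 2383 and 900.5 CPM in the Krt42 cells. The summed level of Krt10 was therefore higher in the Krt6b cells in each of the 4 libraries, and that of Krt5 was higher in the Krt42 cells in 3 of 4. The Krt6b cells were not uniform, since 12 of 28, 10 of 17, 5 of 10 and 3 of 9 of them held 10 or more Krt10 UMIs, with medians of 5.5, 17, 6.5 and 1. Of the Krt42 cells 2 of 47, 0 of 12, 1 of 22 and 0 of 30 did, with medians of 3, 1, 0.5 and 0. Of the Krt42 cells 47 of 47, 11 of 12, 10 of 22 and 8 of 30 held 10 or more Krt6a UMIs. This limit is not matched for depth, which was lower in the LNR pair, so the pairs are not compared by it. The cell with the most Krt42 UMIs in the SAR131675 library had 1009 of Krt42, 383 of Krt6a and 0 of Krt6b among 27674 UMIs. Its counterpart in the sham library had 589, 0 and 0 among 8426 UMIs.

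**Figure D3:**
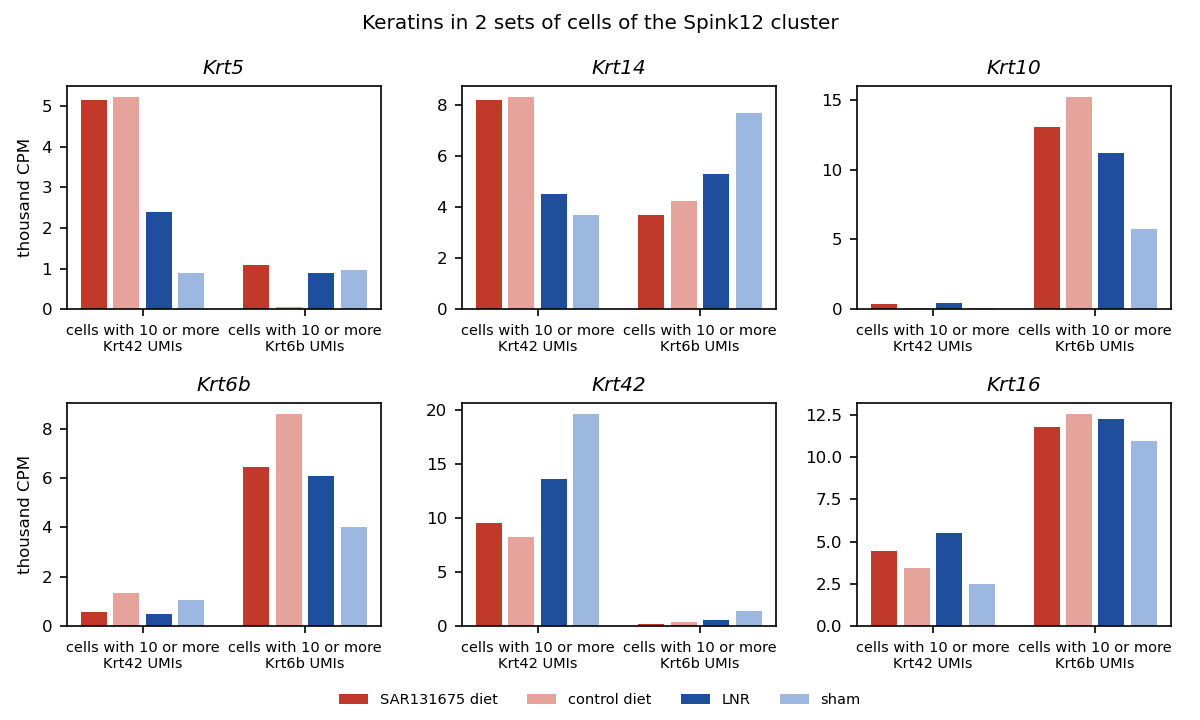
Level (CPM of summed UMIs, axis in units of 1000 CPM, bars from 0) of 6 keratins in cells of the Spink12 cluster with 10 or more UMIs of Krt42 (left bars) or of Krt6b (right bars), with 1 bar per library and 9 to 47 cells per bar. Krt10 stood at 5749.8 CPM or more in the Krt6b cells and at 403 CPM or less in the Krt42 cells; the Krt6b and Krt42 panels show the genes that chose the cells.

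A population led by Serpinb11, Wfdc3, Pdzrn3 and Actn1 (564, 264, 141 and 159 cells, no fixed name) also held much Krt6a (30.9%, 29.9%, 11.2% and 21% of its UMIs) and Krt17 (17.9%, 12.9%, 9.67% and 12.3%). Krt6a stood at 3825, 4339, 3086 and 4147 CPM and Krt17 at 6082, 6377, 11202 and 13350.4 CPM. Krt16 stood at 388, 469, 784 and 908 CPM, with 5, 3, 2 and 2 cells holding 50% of its UMIs. Krt75, the companion layer keratin, stood at 150, 185, 1376 and 943 CPM, which made up 13.3%, 19.5%, 73% and 45.2% of all its UMIs. Krt6b was nearly missing, as given above, so Krt6a was found here without its paralog, whereas in the Spink12 cluster both were present. Cells with 10 or more UMIs of Krt79 numbered 61, 37, 13 and 9, and those with 10 or more of Krt75 numbered 29, 16, 17 and 14, with 1, 0, 2 and 2 cells in both sets. Of all cells of the cluster 10.8%, 14%, 9.22% and 5.66% held 10 or more Krt79 UMIs.

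Krt75 had a further source that differed between the pairs. In a cluster led by Krt25 and Krt71, keratins of the inner root sheath, Krt75 stood at 424 and 426 CPM in the SAR131675 and control diet libraries and at 31.3 and 118 CPM in LNR and sham. It held 77.6%, 64.1%, 8.81% and 25.4% of Krt75 UMIs. In each library the counts came from few cells, 13, 6, 5 and 3 of them holding 50% of the cluster's Krt75. The cluster passed the naming rule as inner root sheath in the SAR131675 pair and had no fixed name in the LNR pair. There Krt35 and S100a3 were also among its leading genes, so its make-up differed. The clusters of the 2 pairs were built separately and from libraries of unequal depth, so the difference between the pairs is given as values only.

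Krt79 was highest in infundibulum-like cells, named from Defb6, Cst6, Gata6 and Plet1 and numbering 250, 219, 428 and 512. It stood there at 10148, 9629, 6272 and 6944 CPM, with a median of 131.5, 112, 46 and 42 UMIs per cell, and 37.5%, 37.2%, 47.3% and 45.4% of its UMIs. Krt17 was high in the same cells, at 8811, 10007, 6722 and 7796 CPM, and they held 15.9%, 23%, 31.4% and 33.9% of its UMIs. In sebaceous-like cells (284, 339, 316 and 381 of them) Krt79 stood at 1532, 1687, 2701 and 2977 CPM while Krt17 stood at 46.2, 13.5, 20.2 and 66 CPM. Thus Krt79 occurred both with and without high Krt17. In the SAR131675 pair a larger cluster led by Dpysl3 (1180 and 959 cells) held a further 35.2% and 38.3% of Krt79 UMIs, at 2175 and 2539 CPM. A cluster led by Ccl27a, a chemokine of keratinocytes, had Krt79 at 108, 142, 770 and 668 CPM.

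Krt17 had the widest spread over populations. Beside the populations above, it stood at 1404, 1550, 2899 and 3167 CPM in a cluster led by Tagln, at 1793, 1673, 1689 and 1593 CPM in a cluster led by Lgr5, a receptor of follicle stem cells, and at 1784, 1372, 801 and 880.1 CPM in a cluster led by Postn. In the LNR pair a cluster led by Krtap17-1, a hair-shaft protein gene, reached 12721 and 10962 CPM. The Postn cluster was also named basal from its markers, with Krt17 as given above, and is not counted among the basal-like cells here. In the basal-like cells counted, a cluster led by mitotic genes also left out, Krt17 stood at 33.6, 13.3, 33.3 and 25.4 CPM. It stood at 35.3, 27.8, 116 and 105 CPM in mesenchymal-like cells, which make no keratin of this kind. The level of these basal-like cells was under the mesenchymal-like level in each library and was not told apart from background. With the mitotic cluster counted in and the Postn cluster still left out, basal-like Krt17 stood at 60 and 44.6 CPM in the SAR131675 pair, above the mesenchymal-like level.

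The genes whose levels most resembled each keratin's were sought over all cell clusters by library (90 in the SAR131675 pair, 87 in the LNR pair, 12944 genes, Pearson r of log2(CPM + 10), mean of both pairs). These correlations describe clusters that share libraries. Krt6a was most like Gpx2 (0.86), Cwh43 (0.71) and Dsg3 (0.69), the last coding for a desmosomal cadherin. Krt6b was most like Gapdhs (0.82), Spink12 (0.66) and Gpx2 (0.63), and Krt16 was most like Gpx2 (0.70), Spink6 (0.68) and Spink12 (0.68). Krt42 was most like Krt90 (0.84), Gapdhs (0.67) and Spink12 (0.66). Krt17 resembled Adgrl3 (0.78), Vdr (0.70), the vitamin D receptor, and Sox9 (0.69), a transcription factor of the outer root sheath. Krt75 resembled Foxe1 (0.67), Fzd5 (0.67) and Ppfia1 (0.59), and Krt79 resembled Defb6 (0.78), a defensin, Endod1 (0.73) and Gstm5 (0.73). Among the 7 keratins, Krt6a and Krt16 had r of 0.80 and 0.74 in the SAR131675 and LNR pairs, and Krt42 and Krt79 had 0.03 and 0.04.

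Inhibition of VEGFR3 was compared with the control diet to ask how lymphatic signaling affects the digit after amputation. In all keratinocyte-like cells Krt16 stood at 92.6 CPM in SAR131675 and 56.4 CPM in control diet (log2 ratio 0.71, 0.68 to 0.75). Krt42 stood at 38.8 and 11 CPM (log2 ratio 1.81, 1.75 to 1.88), and Krt75 at 24.2 and 11.7 CPM (log2 ratio 1.06, 0.99 to 1.13). These 3 of the 7 keratins were past 1.5-fold, all higher in SAR131675, against 6.48% of the 16471 genes tested in either direction and 3.73% in the higher direction. Without the clusters led by genes of other cell types the same 3 were past the limit, beside 4.05% of genes in the higher direction. Krt6a stood at 261 and 177 CPM (log2 ratio 0.56, 0.54 to 0.58), just under the limit. Krt17 stood at 727 and 615 CPM (0.24), Krt79 at 351 and 366 CPM (-0.06), and Krt6b at 16.6 and 17.6 CPM (-0.09). All 7 passed the minimum of 100 UMIs in the pair.

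The mix of populations moved with these ratios. The Krt25 and Krt71 cluster numbered 781 cells (2.69% of kept cells) in SAR131675 and 293 (1.22%) in control diet, while Krt75 within it stood level in CPM (log2 ratio -0.01, -0.09 to 0.08). The share of that cluster's cells with a Krt75 UMI was lower in SAR131675, at 14.4% (12 to 17.1) against 22% (17.2 to 27.5), after each cell was randomly thinned to 2000 UMIs. With the level in each keratinocyte cluster weighted by the control library's mix, Krt75 came to -0.08, Krt16 to 0.47 and Krt6a to 0.16. Krt42 kept a log2 ratio of 1.26 and was then the single keratin past 1.5-fold. Within the Spink12 cluster Krt42 had a log2 ratio of 1.48 (1.40 to 1.56), but 10 cells in SAR131675 and 3 in control diet held 50% of its UMIs there. Without the 5 cells with most Krt42 in each library the ratio was 2.71. Those 5 cells held more than 50% of the control diet counts and less than 50% of the SAR131675 counts. That setting thus raises the ratio and cannot test its direction. Krt6b in that cluster was lower in SAR131675, with a log2 ratio of -0.94 (-1.02 to -0.87). There 5 and 6 cells held 50% of its UMIs, and the share of thinned cells with a Krt6b UMI was 14.8% (10.5 to 19.9) and 14.3% (8.95 to 21.2). In the same cluster Krt6a (-0.08), Krt16 (-0.01) and Krt17 (0.15) were close to level. Without the upper limits on genes and UMIs per cell, the log2 ratio of Krt6b in keratinocyte-like cells turned from -0.09 to 0.75, so its direction depended on whether the largest cells were counted.

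LNR was compared with sham for the same question by surgery. In keratinocyte-like cells Krt6b stood at 19.1 CPM after LNR against 7.76 CPM after sham surgery (log2 ratio 1.30, 1.18 to 1.43), and Krt16 stood at 88.7 and 53.2 CPM (log2 ratio 0.74, 0.69 to 0.79). These 2 of the 7 keratins were past 1.5-fold, both higher in LNR, against 3.6% of the 13721 genes tested in either direction and 0.437% in the higher direction. Krt6a stood at 217 and 182 CPM (0.25), Krt17 at 975 and 1032 CPM (-0.08), Krt79 at 623 and 694 CPM (-0.16), Krt42 at 48.6 and 57.7 CPM (-0.25) and Krt75 at 15.7 and 18.5 CPM (-0.24). Without the clusters led by genes of other cell types, the same 2 keratins were past the limit, at 1.44 and 0.74, beside 0.781% of genes in the higher direction. Krt6a (0.26), Krt17 (-0.08), Krt79 (-0.14), Krt42 (-0.36) and Krt75 (-0.31) then kept their sides. With the sham library's mix of clusters, Krt6b (1.12) stayed past 1.5-fold and Krt16 (0.53) did not. The share of keratinocyte-like cells with a Krt6b UMI, after thinning to 2000 UMIs per cell, did not go with this ratio, at 0.23% (0.138 to 0.359) in LNR and 0.234% (0.149 to 0.352) in sham, so the Krt6b ratio rested on the counts of few cells. Without the 1% of cells with most Krt16 UMIs the Krt16 ratio was 0.07. Those cells held 92.7% and 88.4% of the Krt16 UMIs in LNR and sham, so that value covers only the few counts left. A single LNR cell held 298 of the 1580 Krt6b UMIs of the keratinocyte-like cells and 694 of the 7322 Krt16 UMIs.

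**Figure D4:**
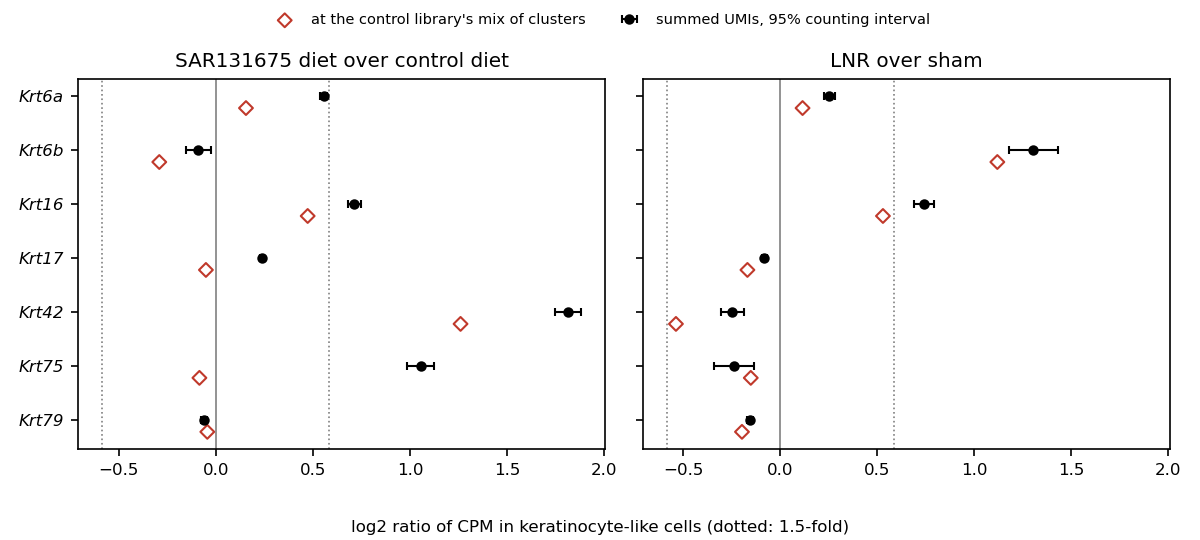
Log2 ratio of CPM in keratinocyte-like cells for the 7 keratins, SAR131675 over control diet (left) and LNR over sham (right), with 95% counting intervals (black) and the value at the control library's mix of clusters (red diamonds); dotted lines mark 1.5-fold. On the left Krt75 lay at 1.06 and, with the control mix, at -0.08, and Krt42 at 1.81 and 1.26.

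Krt16 was the keratin past 1.5-fold, in the same direction, in both pairs, but in neither with the control library's mix of clusters (0.47 and 0.53). In the Spink12 cluster, which held 57.2%, 63.4%, 53.8% and 46.9% of its UMIs, its log2 ratio was -0.01 in the SAR131675 pair and 0.73 (0.66 to 0.80) in the LNR pair. In the LNR pair Krt6a (0.39), Krt6b (0.90) and Krt17 (0.68) of that cluster were on the same side, and Krt42 (-0.61) was on the other. After thinning to 2000 UMIs, 28.9% (22.6 to 35.8) of LNR and 21.2% (15.8 to 27.5) of sham cells of the cluster had a Krt16 UMI. For Krt42 the shares were 13.9% (9.38 to 19.6) and 14.8% (10.2 to 20.4). For each of these keratins the intervals of LNR and sham overlapped. The Krt6b ratio there rested on few cells, 3 in LNR and 2 in sham holding 50% of its UMIs, and 6.19% (3.24 to 10.6) and 3.94% (1.72 to 7.62) of thinned cells had a Krt6b UMI. Outside that cluster, spinous-like cells (4338, 4047, 1512 and 1748 cells with markers such as Krt1 and Krt10) had Krt16 at 31.6 and 7.58 CPM in the SAR131675 pair (log2 ratio 2.06, 1.92 to 2.21) and at 68.6 and 12.3 CPM in the LNR pair (log2 ratio 2.48, 2.28 to 2.70). The LNR value rested on few cells. One spinous-like LNR cell held 694 of 1150 Krt16 UMIs, with 341 of Krt6a and 298 of Krt6b, and without the 5 cells with most Krt16 in each library the ratio was 0.75. In the SAR131675 pair that ratio was 1.90. The 3 spinous-like LNR cells with most Krt16 held 638, 445 and 29 UMIs of Krt14, a marker on the basal list, beside 168, 286 and 40 of Krt10. In SAR131675 the 3 such cells held 248, 185 and 73 beside 49, 10 and 173. The cluster's name need not hold for each of these cells.

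The other keratins of spinous-like cells followed with the same reservation. Krt6a stood at 54.9 and 18.6 CPM (log2 ratio 1.56, 1.47 to 1.66) in the SAR131675 pair and at 69.2 and 32.4 CPM (1.10, 0.95 to 1.24) in the LNR pair. Krt6b stood at 3.8, 0.787, 23.9 and 1.55 CPM. Krt17 stood at 23.8 and 9.29 CPM (1.36) and at 30.6 and 20.3 CPM (0.59), the latter turning to -0.35 without 5 cells of each library. Krt79 stood at 9.81 and 4.19 CPM (1.23) and at 6.92 and 7.38 CPM (-0.09). In spinous-like cells 5 of the 7 keratins had log2 ratios past 1.5-fold with at least 100 UMIs in the SAR131675 pair, beside 3.51% of all genes in either direction and 1.63% in the higher direction. After LNR 4 of the 7 did, beside 0.729% and 0.37%, and all of these keratins were on the higher side. These calls were not independent. A single LNR cell held 694 of 1150 Krt16, 341 of 1160 Krt6a and 298 of 401 Krt6b UMIs, and another held 265, 275 and 88. Krt6b passed the minimum of 100 UMIs only through the treated library. It had 254 and 49 UMIs in the SAR131675 pair and 401 and 29 in the LNR pair. Without Krt17 and Krt79, whose thinned shares in spinous-like cells were under those of mesenchymal-like cells, the SAR131675 count held Krt6a, Krt6b and Krt16, and the LNR count held these with Krt6a shares close to those of mesenchymal-like cells. Krt6b was found in few thinned cells, 13 and 0 in the SAR131675 pair and 3 and 1 in the LNR pair. Krt42 and Krt75 had fewer than 100 UMIs in spinous-like cells of either pair and were not read.

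Krt16 was also counted in cells that make no keratin of this kind. In mesenchymal-like cells it stood higher in the treated library, at 4.1 and 1.7 CPM in the SAR131675 pair and at 13.4 and 4.75 CPM in the LNR pair, where 3 cells held 50% of the LNR counts. In endothelial-like cells it stood lower in the treated library, at 3.3 and 30.3 CPM and at 3.04 and 7.89 CPM, with 2 control diet cells and 1 sham cell holding 50% of the counts there. In myeloid-like cells it stood higher in the treated library, at 28.9 and 2.28 CPM and at 22.2 and 5.03 CPM, with 1 or 2 cells of each library holding 50%. After thinning, 2.24%, 0.876%, 1.26% and 0.528% of spinous-like cells had a Krt16 UMI, beside 0.745%, 0.251%, 0.475% and 0.43% of mesenchymal-like cells, 0.432%, 0.384%, 0.596% and 0.237% of endothelial-like cells and 0.932%, 0.098%, 1.01% and 0.467% of myeloid-like cells. The LNR interval of spinous-like cells (0.762% to 1.97%) overlapped that of myeloid-like cells (0.522% to 1.75%). Left out as too shallow to thin were 57, 53, 8 and 43 spinous-like and 385, 441, 840 and 857 mesenchymal-like, 120, 163, 161 and 207 endothelial-like and 197, 164, 415 and 378 myeloid-like cells. Unthinned, 7.86%, 3.39%, 4.03% and 2.8% of spinous-like cells had a Krt16 UMI, at median depths of 15665.5, 15482, 9921 and 9940.5 UMIs against 9849, 8822, 4317.5 and 4245 in mesenchymal-like cells. The Krt6a shares were 3.36%, 1.7%, 2.06% and 1.76% in spinous-like cells and 1.58%, 0.978%, 1.76% and 1.74% in mesenchymal-like cells. In the SAR131675 pair Krt6a had 645 and 43 UMIs in myeloid-like cells, again higher in SAR131675, and 136 and 261 in endothelial-like cells, lower there. In the LNR pair myeloid-like LNR cells (3.11%) and endothelial-like sham cells (2.37%) had larger Krt6a shares than spinous-like cells, so those spinous-like values were not told apart from background. The Krt17 and Krt79 shares of spinous-like cells were below those of mesenchymal-like cells in each library and were not told apart from background either. The part of free RNA in the Krt16 and Krt6a differences was not tested.

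**Figure D5:**
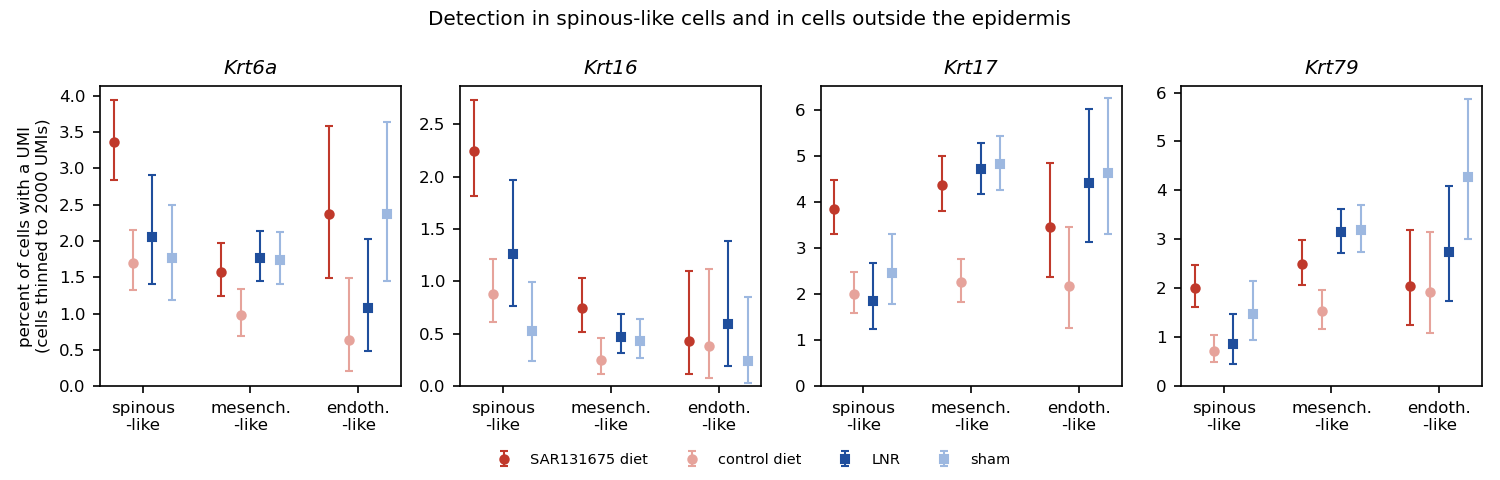
Percent of cells with at least 1 UMI of 4 keratins after thinning to 2000 UMIs, in spinous-like, mesenchymal-like and endothelial-like cells, with 1 point per library and exact 95% binomial intervals that cover counting error only. Krt16 in the SAR131675 library (2.24%) lay above the mesenchymal-like cells of that library (0.745%), while Krt17 and Krt79 of spinous-like cells did not exceed the mesenchymal-like values.

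In a cluster led by Hrnr and Wfdc21, genes of the late, granular stage of the epidermis, Krt16 stood at 146 and 29.5 CPM in the SAR131675 pair (log2 ratio 2.31, 2.18 to 2.45) and at 32 and 30.6 CPM in the LNR pair (0.07, -0.19 to 0.33). Krt6a stood at 71.6 and 9.08 CPM and at 5.21 and 10.5 CPM. Krt6b stood at 39.4 and 2.53 CPM and at 2.74 and 1.12 CPM. All 3 were higher in SAR131675 than in control diet, but 4, 3 and 2 cells held 50% of the UMIs of Krt16, Krt6a and Krt6b in the SAR131675 library.

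Other keratins and wound genes were read in keratinocyte-like cells from lists of 5 to 17 genes, chosen with earlier results of these data known. Of 12 follicle and nail plate keratins tested in the SAR131675 pair, 10 were past 1.5-fold higher and 1 lower, with a median log2 ratio of 1.61 beside -0.00 for all genes, of which 3.73% were past the limit in the higher and 2.76% in the lower direction. Krt33b (2.38), Krt81 (2.31), Krt31 (2.07) and Krt25 (1.91) led, the first 3 of them under 4 CPM in both libraries. Krt36 (-1.89) was the lower one. Krt33b had 218 and 33 UMIs in SAR131675 and control diet, and Krt81 had 145 and 23. Both met the minimum of UMIs in the pair only through the SAR131675 library. In the LNR pair 3 of 13 were higher and 4 lower (median -0.25), beside 0.437% and 3.16% of all genes. The keratins past the limit included Krt33a (3.75), Krt72 (-2.37), Krt83 (2.18) and Krt36 (1.89). Krt33a had 391 and 34 UMIs in LNR and sham (4.73 and 0.352 CPM). Krt72 had 63 and 382 (0.763 and 3.95 CPM), and Krt83 had 317 and 82 (3.84 and 0.848 CPM). Krt33a, Krt72 and Krt83 each met the minimum of UMIs in the pair only through the library where they were higher. Krt36, which led the Spink12 cluster, was thus lower in SAR131675 and higher in LNR. The Krt25 and Krt71 cluster made up 2.69% and 1.22% of kept cells in the SAR131675 pair, and with the control library's mix of clusters 5 follicle and nail plate keratins were higher there and 1 lower (median 0.40), and 3 and 5 in the LNR pair (median -0.37). The share of all genes past the limit was not taken with that mix, so these counts have no background to be set against. Of 10 epidermal layer keratins, Krt2 (-0.62) and Krt78 (-0.59), both of differentiated cells, were lower in the SAR131675 pair and none passed in the LNR pair. Of 4 simple epithelial keratins tested, Krt8 (1.08) and Krt18 (0.62) were higher in the SAR131675 pair, beside 3.73% of all genes, and none passed in the LNR pair. Both were very low, Krt8 at 1.18 and 0.558 CPM and Krt18 at 0.876 and 0.568 CPM in SAR131675 and control diet.

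Of 15 wound-edge genes tested, 4 were past 1.5-fold higher in SAR131675, beside 3.73% of all genes, and none lower. They were S100a8 (4.51) and S100a9 (4.23), which code for calprotectin, Plaur (1.07), the urokinase receptor, and Fscn1 (0.62), an actin bundler. In the LNR pair 4 of 15 were lower, beside 3.16% of all genes, and none higher, but without the clusters led by genes of other cell types none was lower (0.878% of all genes were) and 1, S100a9, was higher (0.781%). Sprr1a, a cornified envelope gene, was 1 of those 4 and moved little, from -0.60 to -0.58, just short of 1.5-fold. S100a8 and S100a9 are also 2 of the 6 genes on the neutrophil list. In keratinocyte-like cells of the SAR131675 pair S100a8 had 2912 and 101 UMIs and S100a9 had 2783 and 117, while the neutrophil markers Retnlg (12 and 11 UMIs), Csf3r (8 and 4) and Mmp8 (2 and 1) were near 0 and Cxcr2 had 197 and 259. Across the LNR pair S100a8 had 686 and 2706 UMIs and Retnlg 53 and 150, and without the clusters led by genes of other cell types they had 611 and 576, and 53 and 20. The part of neutrophil RNA in the LNR values was not tested. Of 11 regulators with known links to these keratins, such as Nfe2l2, Gli1 and Egfr, Msx2 (1.04), a homeobox factor of nail and follicle, was the only one past 1.5-fold in the SAR131675 pair, and none passed in the LNR pair. Without the clusters led by genes of other cell types, the numbers higher and lower were as given for the follicle, epidermal layer, simple epithelial and regulator lists in both pairs, with 3 simple epithelial keratins tested in the LNR pair. With the control library's mix of clusters, a setting added after the data were seen for these lists, Msx2, Krt18, Krt2, Krt78 and Fscn1 (0.17) were not past the limit in the SAR131675 pair, the wound-edge genes S100a8, S100a9, Plaur and Sprr2d (1.09) were higher there, and 2 wound-edge genes were higher and 3 lower in the LNR pair. No share of all genes was taken with that mix, so these counts have no background either.

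Krt42 was also counted outside keratinocyte-like cells. Mesenchymal-like cells of the LNR library held 1105 Krt42 UMIs (29.6 CPM), 97.4% of them in 10 cells, against 26, 9 and 290 UMIs in the SAR131675, control diet and sham libraries. Per 1000 Krt14 UMIs, Krt42 stood at 33.3 in these LNR cells and at 11.3 in the keratinocyte-like cells of that library, whereas Krt17 stood at 130 and 227. In myeloid-like cells of the sham library 573 of 585 Krt42 UMIs were in 1 cell. In both groups the counts thus came from a handful of cells and not from the population.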

How the data were processed

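The authors deposited filtered 10x Genomics 3′ gene-by-barcode matrices of raw UMI counts, aligned to GRCm39; the submitters' processing notes give Cell Ranger 6.1.2, while the headers of the SAR131675 and control diet files give 8.0.1. Intronic counting and read length are not given in the sources used here. Every deposited barcode held at least 500 UMIs. Barcodes with 200 to 5500 genes, at most 30000 UMIs and at most 10% mitochondrial UMIs were kept, as in the study; its integration across libraries was not repeated. Each pair of libraries was clustered together with scanpy 1.11.5 (2000 variable genes without the 7 keratins, 30 components, Leiden resolution 0.7, then 1 within keratinocyte-like cells), and clusters were named only from fixed markers that hold none of the 7. The libraries held 585284877, 448276501, 168507188 and 175998346 UMIs in all barcodes. UMIs were summed per library and population, CPM and log2 ratios were taken from the sums, and a gene was called past 1.5-fold with at least 100 UMIs in the pair. Ratio intervals are exact and conditional on the summed counts. No other statistic was tested, since each condition was 1 library. Sequences came from GENCODE on GRCm38, not the build of the files. All 7 keratins, genes of the lists (up to 4 a list, by size), leading genes of clusters and the 3 genes most like each keratin are named. The keratins and lists were chosen with earlier results of these data known. One keratin of the follicle list is not analysed here. The ratio calculation was run on simulated gene totals that held independent counting error only. Those totals have no uneven spread over cells, so they cannot check ratios that rest on few cells. Alternatives were other limits on cells, Scrublet doublets, resolutions, a marker gate, weightings and fewer cells.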

Additional observations from a re-analysis of the deposited data

How the results depend on the processing

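No paired analysis was possible because each condition is 1 library, and no library could be left out for the same reason. The count of keratins past 1.5-fold in keratinocyte-like cells was 3 in the SAR131675 pair and 2 in the LNR pair, beside 6.48% and 3.6% of all genes tested. With the control library's mix of keratinocyte clusters it was 1 in the SAR131675 pair (Krt42) and 1 in the LNR pair (Krt6b). The share of all genes past the limit was not taken with that mix. It is not given either for the settings below with fewer cells or without upper limits. A changed count there has no background to be set against. Without the 1% of cells with most UMIs of each keratin the count was 1 in the LNR pair, where Krt42 was then lower (-1.74), Krt16 came to 0.07 and Krt6b gave no value. Those cells held 98.4% and 95.4% of Krt42 UMIs and 92.7% and 88.4% of Krt16 UMIs in LNR and sham. So few counts were left that this setting is no check of those ratios. With no upper limits on genes and UMIs the count was 4 in the SAR131675 pair, Krt6b being added. Without the 1% of cells with most UMIs it was 4 there, Krt6a (1.04) being added, and those cells held 51.9% and 65.7% of Krt6a UMIs. Under the other alternatives, among them at most 5% mitochondrial UMIs, removal of Scrublet doublets, first-level resolutions of 0.4 and 1.2, a marker gate, centering on the median of all genes and mean CPM over cells, the counts kept their values. Scrublet called fewer cells than its set rates, so its removal is a weak check. The single ratios and shares were less stable, as 37 of 42 moved by more than counting error with the marker gate and 12 of 14 with mean CPM over cells. Over 12 settings the log2 ratio of Krt42 ranged from 1.00 to 2.62 in the SAR131675 pair, and that of Krt16 from 0.47 to 1.27 there and from 0.07 to 0.91 in the LNR pair. The ends at 2.62, 1.27 and 0.07 came from the setting without the 1% of cells with most UMIs of the keratin. Krt75 in the SAR131675 pair reversed to -0.084 with the control library's mix. Krt17 in spinous-like LNR cells over sham reversed to -0.35 without the 5 cells with most of its UMIs in each library and to -0.22 without the 1% of such cells. The settings without the clusters led by other cell types and without 1 cell, 5 cells or 1% of spinous-like cells were added after the data were seen. Few cells carried the counts of Krt6b, Krt42 and Krt75, which limits their ratios.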
